A study of Drosophila melanogaster with 21 samples.

Results

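The core spliceosome components examined here are 32 Drosophila genes that encode the common machinery of intron removal, taken by symbol from a list of 3 U1 proteins, 7 Sm proteins, 9 U2 proteins, 6 proteins of the U4/U6.U5 tri-snRNP, 4 proteins of the Prp19 complex and 3 factors of the second step of splicing. All 32 were found among the 13989 genes of the transcript tables, 31 by their own symbol and SmG through its RefSeq synonym as SNRPG, and all 32 passed the filter on low counts that left 8750 genes to test. The rule uses symbols and no measured value, but the list was chosen with earlier results of these data known. The libraries came from S2 cells, a cultured fly line with blood-cell character, in which a copper-inducible gene had been integrated and hygromycin-selected. In 6 of the 7 groups that gene encoded a form of LS2, a fly relative of the large subunit of U2AF. In U2AF itself that subunit binds the pyrimidine tract before the 3′ splice site.

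The series compared wild-type LS2 with 5 mutants and with cells given no LS2. Cells expressed wild-type LS2 (WT), LS2 with W62A, D63A and I64A (d38), LS2 with F285D and F287D (RRM2), LS2 with K192E and R194E (Beta5), LS2 whose residues from H197 to P233 had been exchanged for GGS motifs (GSlinker), LS2 with E370K and D371K (the SF1 mutant), or GFP and no added LS2 (GFP). Every group, GFP included, received 500 µM copper sulfate for 53 h, and polyadenylated RNA was sequenced in 3 libraries per group. Each construct is represented by 1 cell line as far as the labels say, so a difference between lines and an effect of the construct cannot be told apart. The labels do not say whether replicates came from separate cultures, so p-values measure the spread between these libraries.

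In splicing, the U1 and U2 snRNPs mark the ends of the intron, the U4/U6.U5 tri-snRNP joins them, U4 is then released, and the Prp19 complex stabilises the active site in which the intron is cut out in a pair of steps. Each of the U1, U2, U4 and U5 RNAs carries a ring of Sm proteins. U2AF helps to recruit the U2 snRNP to the branch site.

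LS2 itself was measured at 5175 to 8216 TPM (a level corrected for transcript length and scaled to the library's total) in the 18 LS2 libraries and at 1.46, 1.49 and 3.97 TPM in GFP. Library totals ran from 17667236 to 38553848 estimated counts. The libraries fall into 2 sets by their effective lengths, the length over which fragments could start: among long transcripts, the gap between length and effective length had a standard deviation of 68.4 to 88.6 nt for WT, d38, RRM2 and GFP (12 libraries) and of 277.8 to 378.7 nt for the SF1 mutant, GSlinker and Beta5 (9 libraries). The set and the construct cannot be told apart when any of these last 3 groups is compared with GFP or WT. Of 8 markers of the S2 line, 7 lay between 7.03 and 548 TPM in all 21 libraries and NimC1 reached at most 0.192 TPM. Their summed level ran from 718 to 1385 TPM over the LS2 libraries and from 1581 to 1671 TPM in GFP. Of the markers of neurons, muscle, germ line, fat body and gut, elav was highest, at up to 7.07 TPM.

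Across these libraries the messages differed more widely in level from gene to gene than between groups. Averaged over the 21 libraries, hoip had the highest level at 507 TPM and Sf3b3 the next at 415 TPM, while Prp18 had the lowest at 12.2 TPM. Within the Sm ring, whose members assemble in equal numbers, 6 of 7 messages lay between 157 TPM (SmE) and 234 TPM (SmF), and SmD1 stood at 77.7 TPM. The SF3a subunits Sf3a1, Sf3a2 and noi were close together at 31.2, 32 and 27.3 TPM. The SF3b subunits were not: Sf3b1 and Sf3b2 had 30.4 and 41.8 TPM, the small subunits Sf3b5 and Sf3b6 had 103 and 135 TPM, and Sf3b3 had 415 TPM. A lncRNA gene and 9 snoRNA genes lie within Sf3b3, and 0 of their transcripts are in the tables. Whether their reads enter the level of Sf3b3 was not tested. The highest group mean in CPM (counts scaled to library size with TMM, not corrected for length) exceeded the lowest by 1.12-fold for SmE and Sf3b1 and by 1.95-fold for Slu7, the extremes of the 32.

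Expression was tested with edgeR's quasi-likelihood test over all 8750 genes, and a gene was called at a Benjamini-Hochberg adjusted p under 0.05. WT against GFP called 5 of the 32 members, 1 higher and 4 lower, which is 15.6%, beside 34.2% of all genes tested (17.1% higher and 17.1% lower). d38 against GFP called 4, 1 higher and 3 lower, 12.5% beside 30.3% of all genes (15.1% and 15.2%). RRM2 against GFP called 5, 1 higher and 4 lower, 15.6% beside 24.9% of all genes (12.3% and 12.7%). In these 3 comparisons the median log2 fold change of the members was 0.01, −0.05 and −0.04, and that of all genes was 0.00, 0.00 and −0.01. The median size of the change, regardless of sign, was 0.09, 0.09 and 0.11 for the members, beside 0.18, 0.17 and 0.16 for all genes. Each of the 3 comparisons shares the GFP libraries. Of the 32 members, 24 were called in none of them. The matching share of all genes is not given here, so that count is not read as a trait of the members. In RNA from a whole culture, fewer cells with a message and less message per cell cannot be told apart.

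Fitting only the 12 libraries of WT, d38, RRM2 and GFP called 10, 9 and 9 members in the same 3 comparisons. That is 31.2%, 28.1% and 28.1%, beside 45.3%, 41.8% and 36.8% of the 8585 genes tested in that fit. The members added were Prp38, Sf3b2, Sf3b5, Slu7 and crn in WT, Bx42, Prp19, Sf3b3, Slu7 and snRNP-U1-70K in d38, and SmD1, U4-U6-60K, hoip and snRNP-U1-70K in RRM2, with log2 fold changes between −0.20 and 0.20. The counts in WT and d38 also rest on single libraries. Without GFP replicate 1 or 3 the count was 2 for WT and 2 for d38, without WT replicate 1 or 2 it was 3 for WT, and without d38 replicate 3 it was 2 for d38.

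**Figure D1:**
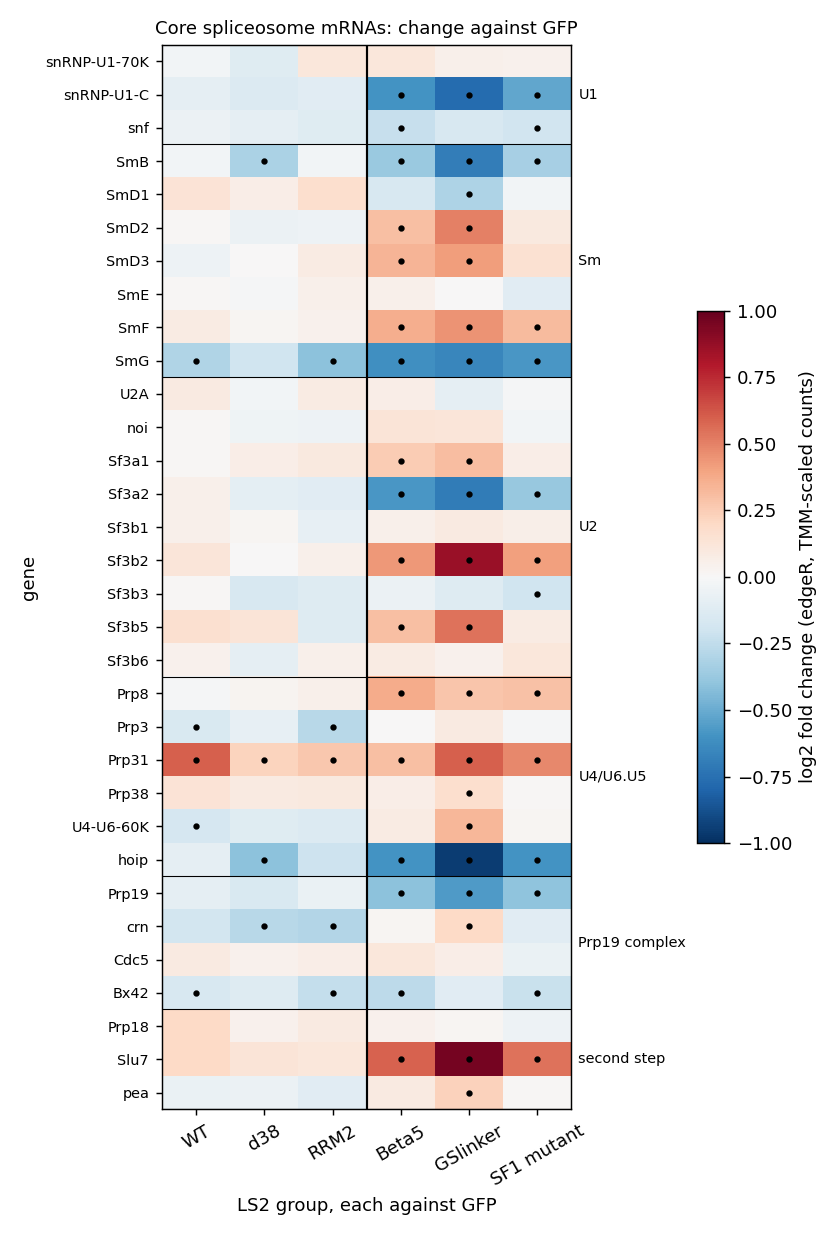
Log2 fold changes against GFP (colour, edgeR on TMM-scaled counts) of the 32 genes, in rows by class, in the 6 LS2 groups, in columns; a dot marks an adjusted p under 0.05, and the vertical line parts the sets of libraries. Prp31 is the only row with a dot in all 6 columns, and the right-hand columns hold most of the dots.

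The tri-snRNP held the 1 message called in every LS2 group. Prp31, which binds the U4 RNA and holds U4/U6 and U5 together, rose in every LS2 group and was the only member called in all 6 comparisons with GFP. Prp31 is a gene of 1 annotated transcript in the tables (FBgn0036487, chromosome 3L, 15159100 to 15161138, plus strand). Prp31 had 92.1, 99.3 and 103 CPM in WT, 77.5, 75.2 and 74.0 in d38, 77.7, 80.2 and 77.9 in RRM2, 77.6, 81.1 and 81.5 in Beta5, 97.1, 98.6 and 99.4 in GSlinker, 86.1, 89.9 and 97.0 in the SF1 mutant, against 66.5, 62.9 and 65.8 in GFP. The 18 LS2 libraries all lay above the 3 GFP libraries, and WT, GSlinker and the SF1 mutant stood above d38, RRM2 and Beta5. In WT against GFP the edgeR log2 fold change of Prp31 was 0.60 (SE 0.05, adjusted p = 1.63e-08), a 1.51-fold level, and in d38 against GFP 0.22 (SE 0.05, adjusted p = 0.00371) and in RRM2 against GFP 0.27 (SE 0.05, adjusted p = 0.000677). Over 14 alternatives the WT change stayed between 0.55 and 0.64, that of d38 between 0.18 and 0.36 and that of RRM2 between 0.23 and 0.34, with adjusted p of at most 0.0345. Changes in Beta5, GSlinker and SF1 mutant cells were 0.30, 0.60 and 0.48, with adjusted p of 8.84e-05, 2.00e-08 and 2.21e-07.

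The rise of Prp31 was smaller in both mutants of the first set than in WT. In d38 against WT the edgeR log2 fold change of Prp31 was −0.38 (SE 0.05, adjusted p = 3.67e-05), and in RRM2 against WT −0.32 (SE 0.05, adjusted p = 0.000324). It was the only member that edgeR called over the 21 libraries in either comparison: 1 of 32 is 3.12%, beside 16.3% of all genes for d38 against WT (7.67% higher and 8.65% lower) and 8.11% for RRM2 against WT (4.08% and 4.03%). Beta5 was also lower than WT (−0.30, adjusted p = 0.000115). GSlinker differed from WT by 0.00 (adjusted p = 0.984, and by −0.03 to 0.18 over the alternatives). The SF1 mutant differed by −0.11 (adjusted p = 0.0801, and by −0.16 to 0.11). Fitting the 12 libraries alone, the count was 5 for d38 against WT, adding hoip, SmB, Sf3b2 and Sf3b3, all lower in d38, and 3 for RRM2 against WT, adding Sf3b5, lower, and snRNP-U1-70K, higher. These are 15.6% and 9.38%, beside 27.2% and 15.7% of all genes in that fit. DESeq2 called 2 in each (6.25%, beside 18.1% and 9.87% of all genes), adding Sf3b3 in d38 and snRNP-U1-70K in RRM2. Limma on log2(TPM + 1) called 8 for d38 (25%, beside 32.4%) and 2 for RRM2 (6.25%, beside 8.93%).

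Prp31 overlaps CG7011 on the other strand over 224 nt, 12% of the exonic length of Prp31. The protocol given does not name a strand-specific kit, so reads of the overlap cannot be told apart. In all, 14 members, Prp31 included, have an exon overlap with a gene on the other strand. Among the others, the overlapping share of exonic length was largest for Cdc5 (15.1%), Prp19 (14.3%), Prp18 (11.6%) and SmD2 (11.3%). Reads of those overlaps cannot be told apart either, and their part in the calls was not tested. CG7011 had 43.7, 40.7 and 42.5 CPM in WT, 43.7, 42.1 and 41.1 in d38, 39.0, 37.8 and 41.9 in RRM2, and 37.9, 34.5 and 37.0 in GFP. It was higher in WT by 0.21 (adjusted p = 0.0112) and in d38 by 0.22 (adjusted p = 0.0125) than in GFP, and d38 and WT differed by 0.00 (adjusted p = 0.990). In GSlinker, where Prp31 was at 97.1 to 99.4 CPM, CG7011 differed from GFP by −0.08 (adjusted p = 0.264).

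**Figure D2:**
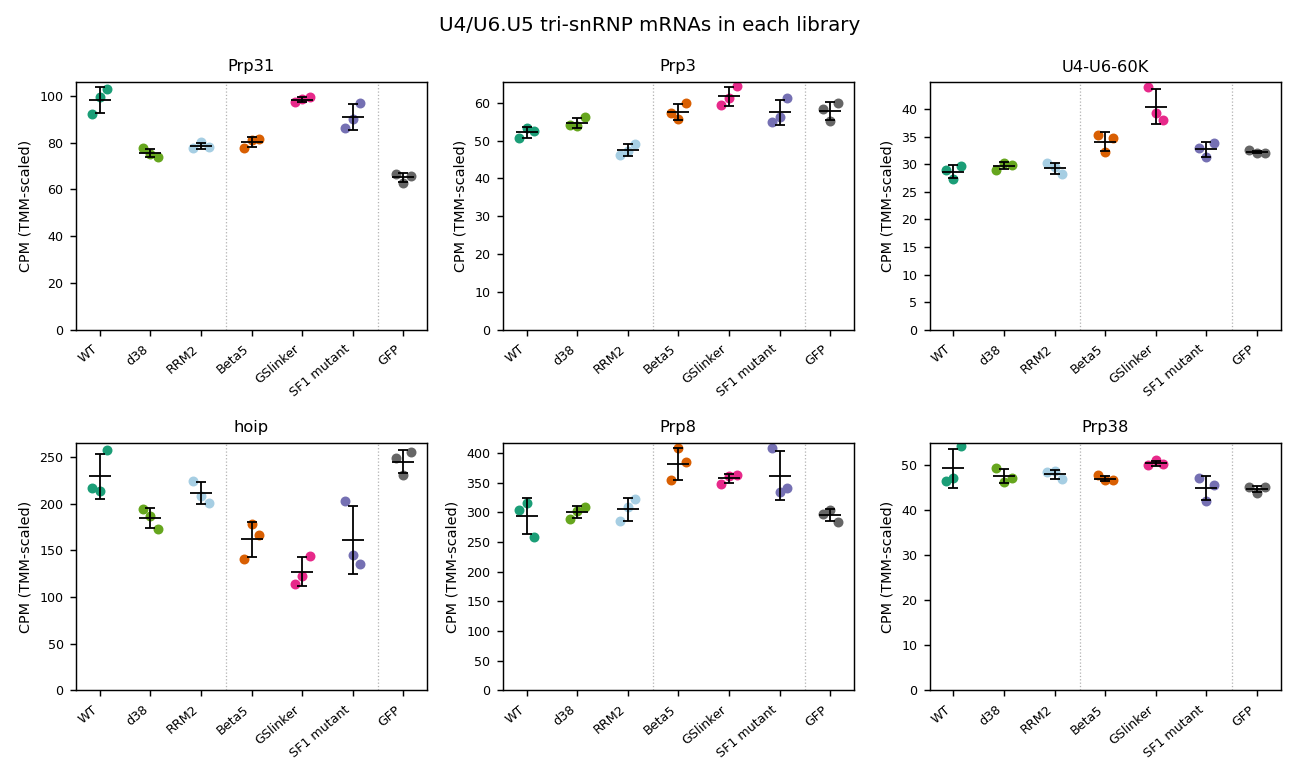
TMM-scaled CPM (vertical axis, from 0) of the 6 tri-snRNP genes in each of the 21 libraries (points), with the mean and SD of 3 libraries (bars); dotted lines part the Beta5, GSlinker and SF1 mutant set from the rest. Prp31 lies at 74.0 CPM or more in all LS2 libraries, against 66.5 or less in GFP, while hoip departs from GFP mainly in the middle set. U4-U6-60K lies below GFP in WT, d38 and RRM2 and is highest in GSlinker.

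Other tri-snRNP members were called in fewer groups. U4-U6-60K, which with Prp3 binds the U4/U6 duplex, had 28.9, 27.4 and 29.7 CPM in WT, 29.0, 30.3 and 29.8 in d38, 30.2, 29.4 and 28.2 in RRM2, 35.3, 32.2 and 34.8 in Beta5, 44.0, 39.3 and 38 in GSlinker, 32.9, 31.3 and 33.9 in the SF1 mutant, against 32.5, 32.1 and 32 in GFP. In WT against GFP the edgeR log2 fold change of U4-U6-60K was −0.17 (SE 0.06, adjusted p = 0.0358), and in GSlinker it rose by 0.33 (adjusted p = 0.000102). The WT libraries lay below the GFP libraries and the GSlinker libraries above them. The call in WT was lost without WT replicate 1 or 2 or GFP replicate 1 or 3, where the adjusted p ran from 0.0651 to 0.0927. Prp3 averaged 52.1 ± 1.42 CPM in WT and 47.5 ± 1.55 in RRM2, against 57.9 ± 2.37 in GFP (SD, n = 3 each). It fell in WT by 0.15 (adjusted p = 0.0367) and in RRM2 by 0.28 (adjusted p = 0.000625) on the log2 scale, and the WT call was lost without WT replicate 1 or GFP replicate 1 or 3 (adjusted p of 0.120, 0.0930 and 0.140). Prp8, the large U5 protein at the catalytic centre, and Prp38, needed to activate the spliceosome, were called by edgeR over the 21 libraries in none of WT, d38 and RRM2 against GFP. Prp38 was called in WT over the 12 libraries alone (0.15, adjusted p = 0.0362), with the effective length offset (adjusted p = 0.0494) and without WT replicate 1 (adjusted p = 0.0395), and on log2(TPM + 1) in d38 (0.23, adjusted p = 0.00251) and RRM2 (0.16, adjusted p = 0.0397).

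The message of hoip, whose protein binds the U4 RNA beside Prp31 and is also part of box C/D snoRNPs, fell in 4 of the 6 LS2 groups. It had 217, 214 and 257 CPM in WT, 194, 187 and 173 in d38, 224, 208 and 201 in RRM2, 141, 178 and 166 in Beta5, 114, 123 and 144 in GSlinker, 203, 145 and 135 in the SF1 mutant, against 249, 231 and 255 in GFP. In d38 against GFP the edgeR log2 fold change of hoip was −0.41 (SE 0.12, adjusted p = 0.015), a call lost without d38 replicate 3 or GFP replicate 1 or 3 (adjusted p of 0.0661, 0.0520 and 0.0604) and on log2(TPM + 1) (−0.27, adjusted p = 0.0817). Changes in Beta5, GSlinker and SF1 mutant cells were −0.60, −0.95 and −0.60, with adjusted p of 0.000343, 2.32e-06 and 0.000294. In WT the difference from GFP was −0.09 (adjusted p = 0.592), and SF1 mutant replicate 1, at 203 CPM, lay well above the other SF1 mutant libraries.

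Among the U1 proteins, edgeR called 0 of 3 in WT, d38 and RRM2 against GFP, DESeq2 also 0, and at an unadjusted p under 0.05 there were 0, 1 and 0. Of all genes, edgeR called 34.2%, 30.3% and 24.9%. snRNP-U1-C, which steadies the pairing of U1 RNA with the 5′ splice site, had 37.5, 35 and 40.6 CPM in WT, 36.9, 35.1 and 37.0 in d38, 38.7, 36.3 and 36.5 in RRM2, 23.8, 29.7 and 26.1 in Beta5, 23.9, 20.9 and 25.8 in GSlinker, 32.8, 27.3 and 23.5 in the SF1 mutant, against 41.6, 38.4 and 40.4 in GFP. All 9 libraries of the other set (Beta5, GSlinker, SF1 mutant) lay below the GFP libraries, with log2 fold changes of −0.60, −0.77 and −0.52 (adjusted p of 5.23e-05, 2.91e-06 and 0.000171). snRNP-U1-70K, which binds a stem-loop of U1 RNA, had 82.7, 81.3 and 84.1 CPM in WT, 79.4, 79.0 and 74.2 in d38, 91.5, 89.1 and 92.3 in RRM2, 88.3, 92.8 and 92.2 in Beta5, 81.5, 86.2 and 93.8 in GSlinker, 86.5, 83.0 and 90.5 in the SF1 mutant, against 87.4, 83.8 and 82.0 in GFP. Against GFP the d38 libraries all lay lower and the RRM2 and Beta5 libraries all higher, with log2 fold changes of −0.12, 0.11 and 0.11 that edgeR did not call (adjusted p of 0.0916, 0.147 and 0.0821). Over the 12 libraries alone d38 and RRM2 were called (adjusted p of 0.0289 and 0.0237), and on log2(TPM + 1) RRM2, Beta5, GSlinker and the SF1 mutant were, with changes from 0.18 to 0.27 (adjusted p of at most 0.022). snf, which serves in both U1 and U2 snRNPs in flies, had 45.7, 46.5 and 55.0 CPM in WT, 51.4, 47.4 and 45.7 in d38, 49.1, 46.8 and 45.5 in RRM2, 46.7, 41.6 and 42.8 in Beta5, 50.1, 44.5 and 43.0 in GSlinker, 44.1, 45.8 and 45.5 in the SF1 mutant, against 53.6, 48.3 and 52.1 in GFP. It was called lower in Beta5 (−0.23, adjusted p = 0.0124) and in the SF1 mutant (−0.19, adjusted p = 0.0393), and on log2(TPM + 1) neither was called (adjusted p of 0.0947 and 0.949). The Beta5 call was also lost without Beta5 replicate 2 or GFP replicate 1 (adjusted p of 0.0519 and 0.0678), and the SF1 mutant call without any 1 SF1 mutant library or GFP replicate 1 or 3 (adjusted p from 0.0591 to 0.131).

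Of the 7 Sm messages, 1 was called in each of WT, d38 and RRM2 against GFP: SmG in WT and RRM2, and SmB in d38. This is 14.3% in each, beside 34.2%, 30.3% and 24.9% of all genes. SmG had 65.3, 52.5 and 69.2 CPM in WT, 74.1, 63.6 and 62.7 in d38, 61.8, 56.8 and 55.2 in RRM2, 49.9, 51.0 and 50.7 in Beta5, 48.0, 47.2 and 52.0 in GSlinker, 57.2, 45.3 and 51.0 in the SF1 mutant, against 78.5, 72.6 and 79.5 in GFP. All LS2 libraries except d38 replicate 1 lay below the lowest GFP library, and the levels were lowest in Beta5, GSlinker and the SF1 mutant. In WT against GFP the edgeR log2 fold change of SmG was −0.30 (SE 0.09, adjusted p = 0.0152), and in RRM2 against GFP −0.41 (SE 0.09, adjusted p = 0.00266), while d38 missed the threshold at −0.20 (adjusted p = 0.106). The WT call was lost without WT replicate 2 or GFP replicate 3 (adjusted p of 0.0658 and 0.0527). In the other set the changes were −0.61, −0.65 and −0.58, with adjusted p of at most 2.53e-05. These counts are not corrected for length, and the SmG isoforms differ in length. Corrected for length, SmG averaged 218 ± 5.41 TPM in Beta5, 219 ± 4.94 in GSlinker and 227 ± 35.2 for the SF1 mutant, against 213 ± 20.9 in WT and 263 ± 5.63 in GFP (SD, n = 3 each). On log2(TPM + 1) the differences of these 3 groups from WT were 0.04, 0.05 and 0.08, against −0.30, −0.35 and −0.28 on counts; the TPM scale moved the median of all genes in these comparisons to 0.09, 0.13 and 0.18. For d38 against WT, SmG differed by 0.35 on that scale (adjusted p = 0.00671) and the median of all genes by 0.14.

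SmB had 126, 119 and 136 CPM in WT, 108, 106 and 100 in d38, 132, 125 and 126 in RRM2, 85.5, 113 and 104 in Beta5, 79.6, 78.3 and 83.7 in GSlinker, 126, 100 and 83.2 in the SF1 mutant, against 135, 127 and 129 in GFP. In d38 against GFP the edgeR log2 fold change of SmB was −0.32 (SE 0.11, adjusted p = 0.0289), a call lost whenever any 1 of the d38 libraries or GFP replicate 1 or 3 was left out (adjusted p from 0.0509 to 0.108). Beta5, GSlinker and SF1 mutant changes were −0.37, −0.69 and −0.33, and SF1 mutant replicate 1, at 126 CPM, lay just below the GFP range. Without Beta5 replicate 1 the adjusted p in Beta5 was 0.0502, and without SF1 mutant replicate 3 that in the SF1 mutant was 0.0868. On log2(TPM + 1) SmB in d38 was not called (−0.21, adjusted p = 0.118). SmD3 had 80.1, 80.6 and 96.0 CPM in WT, 92.5, 88.0 and 85.5 in d38, 98.2, 91.9 and 90.5 in RRM2, 121, 102 and 112 in Beta5, 119, 122 and 115 in GSlinker, 89.7, 96.1 and 109 in the SF1 mutant, against 85.5, 86.4 and 93.5 in GFP. It rose in Beta5 by 0.34 and in GSlinker by 0.42 (adjusted p of 0.00120 and 0.000115), and the d38, RRM2 and SF1 mutant libraries overlapped GFP. The ring did not move together in GSlinker: SmD2, SmD3 and SmF were called higher, SmB, SmD1 and SmG lower, and SmE differed by 0.00 (adjusted p = 0.992), or by 0.30 on log2(TPM + 1) (adjusted p = 8.62e-05). The call of SmD1 in GSlinker was lost on log2(TPM + 1), where its change was −0.01 (adjusted p = 0.868).

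Of the U2 proteins, which bind and hold the branch site, edgeR called 0 of 9 in WT, d38 and RRM2 against GFP. At an unadjusted p under 0.05 there were 0, 1 and 0, DESeq2 called 0, 1 (Sf3b3) and 0, and the 12 libraries alone gave 2 (Sf3b2 and Sf3b5), 1 (Sf3b3) and 0. Of all genes, edgeR called 34.2%, 30.3% and 24.9% over the 21 libraries and 45.3%, 41.8% and 36.8% over the 12. Log2 fold changes of the 9 lay between 0.01 and 0.16 in WT, −0.16 and 0.13 in d38 and −0.13 and 0.10 in RRM2. Sf3b1, which clamps the branch site, averaged 115 ± 7.74 CPM in WT, 113 ± 3.59 in d38 and 105 ± 0.284 in RRM2, against 111 ± 6.61 in GFP (SD, n = 3 each). U2A, noi, Sf3b1 and Sf3b6 were called by edgeR in none of the 6 LS2 groups against GFP. DESeq2 called noi in Beta5 and GSlinker (adjusted p of 0.0276 and 0.0468), limma on log2(TPM + 1) called noi in the same groups (adjusted p of 0.00906 and 0.00237) and Sf3b6 in all 3 groups of the other set (adjusted p of at most 0.00287), and Sf3b6 was called in the SF1 mutant without its replicate 2 (adjusted p = 0.020). U2A is the partner of snf in the U2 snRNP, noi is the third SF3a subunit, and Sf3b6 sits near the branch-point adenosine.

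Of the 9 U2 members, 4 were called in Beta5, 4 in GSlinker and 3 for the SF1 mutant. These are 44.4%, 44.4% and 33.3%, beside 57.3%, 63.7% and 58.5% of all genes. Sf3a2 had 28.2, 28.5 and 32.1 CPM in WT, 27.4, 26.0 and 26.6 in d38, 27.4, 26.4 and 25.6 in RRM2, 16.8, 20.9 and 19.9 in Beta5, 17.0, 16.4 and 19.2 in GSlinker, 27.5, 17.9 and 20.1 in the SF1 mutant, against 30.9, 27.6 and 27.4 in GFP. It fell by 0.58, 0.70 and 0.38 (adjusted p of 0.000316, 4.02e-05 and 0.00756), and SF1 mutant replicate 1 stood within the GFP range. Without SF1 mutant replicate 2 the adjusted p of that line was 0.0579. Sf3a1, a partner of Sf3a2 in the same complex, had 61.2, 61.2 and 65.1 CPM in WT, 64.8, 65.9 and 64.8 in d38, 63.8, 66.2 and 68.6 in RRM2, 73.1, 72.8 and 74.6 in Beta5, 77.4, 75 and 78.5 in GSlinker, 64.8, 61.6 and 69.2 in the SF1 mutant, against 61.6, 62.3 and 61.7 in GFP. It rose in Beta5 and GSlinker by 0.25 and 0.31 (adjusted p of 0.000268 and 1.85e-05), and in both lines it moved opposite to Sf3a2. Sf3b2, which binds Sf3b1 and the intron upstream of the branch site, had 75.3, 78.2 and 77.7 CPM in WT, 72.6, 69.7 and 70.6 in d38, 73.5, 72.9 and 75.3 in RRM2, 114, 80.7 and 93.3 in Beta5, 131, 141 and 116 in GSlinker, 67.9, 95.9 and 121 in the SF1 mutant, against 71.0, 70.1 and 72.4 in GFP. It rose by 0.43, 0.86 and 0.41 (adjusted p of 0.0110, 2.09e-05 and 0.0147), and SF1 mutant replicate 1 lay below the GFP libraries. Without Beta5 replicate 1 the Beta5 change was 0.29 (adjusted p = 0.0960), and without SF1 mutant replicate 3 that of the SF1 mutant was 0.20 (adjusted p = 0.181).

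In the Prp19 complex, 1, 1 and 2 of the 4 members were called in WT, d38 and RRM2 against GFP, all lower. These are 25%, 25% and 50%, beside 34.2%, 30.3% and 24.9% of all genes (17.1%, 15.2% and 12.7% lower). With 4 genes, the shares are not read as a trait of the complex. Bx42, the fly SKIP protein, had 68.2, 70.2 and 76.3 CPM in WT, 74.2, 71.5 and 73.1 in d38, 69.1, 66.7 and 66.4 in RRM2, 68.3, 66 and 65.0 in Beta5, 75.2, 71.1 and 75.1 in GSlinker, 71.3, 63.9 and 70.4 in the SF1 mutant, against 80.8, 80.5 and 78.0 in GFP. All 18 LS2 libraries lay below the 3 GFP libraries, and calls were made in WT (−0.16, adjusted p = 0.0262), RRM2 (−0.24, adjusted p = 0.00182), Beta5 (−0.26, adjusted p = 0.000306) and SF1 mutant cells (−0.22, adjusted p = 0.00147). The WT call was lost without WT replicate 1 or GFP replicate 1 (adjusted p of 0.120 and 0.0795), and that in the SF1 mutant on log2(TPM + 1) (−0.07, adjusted p = 0.301). crn, a repeat protein that acts as a scaffold of the complex, had 111, 114 and 120 CPM in WT, 110, 108 and 105 in d38, 111, 105 and 104 in RRM2, 143, 121 and 132 in Beta5, 160, 148 and 140 in GSlinker, 105, 118 and 139 in the SF1 mutant, against 133, 127 and 130 in GFP. It fell in d38 by 0.28 and in RRM2 by 0.29 (adjusted p of 0.0121 and 0.0116) and was higher in GSlinker by 0.20 (adjusted p = 0.0376). On log2(TPM + 1) the d38 and RRM2 calls were lost (adjusted p of 0.204 and 0.0572), and the GSlinker call was lost without GSlinker replicate 1 or 2 or GFP replicate 2 or 3 (adjusted p from 0.0536 to 0.175). Prp19, the ubiquitin ligase of the complex, had 166, 167 and 183 CPM in WT, 170, 162 and 164 in d38, 179, 173 and 170 in RRM2, 124, 149 and 141 in Beta5, 118, 117 and 135 in GSlinker, 161, 127 and 127 in the SF1 mutant, against 191, 175 and 183 in GFP. Changes in Beta5, GSlinker and SF1 mutant cells were −0.41, −0.57 and −0.40 (adjusted p of 0.000391, 1.01e-05 and 0.000396). Cdc5 was called by edgeR in none of the 6 groups, and in the SF1 mutant with the effective length offset (−0.18, adjusted p = 0.0124) and without SF1 mutant replicate 1 (−0.14, adjusted p = 0.036).

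Of the 3 factors of the second step, edgeR called 0 in WT, d38 and RRM2 against GFP, DESeq2 0, and at an unadjusted p under 0.05 there were 0, 0 and 1. Of all genes, edgeR called 34.2%, 30.3% and 24.9%. Slu7, which helps choose the 3′ splice site in that step, had 29.2, 28.8 and 30.9 CPM in WT, 26.8, 28.9 and 28.9 in d38, 28.9, 27.4 and 27.6 in RRM2, 45.3, 32.5 and 38.9 in Beta5, 52.0, 52.4 and 47.1 in GSlinker, 30.2, 34.0 and 49.1 in the SF1 mutant, against 25.8, 25.6 and 26.2 in GFP. All 18 LS2 libraries lay above the GFP libraries. The changes were 0.20, 0.13 and 0.11 in WT, d38 and RRM2 (adjusted p of 0.256, 0.496 and 0.562). Beta5, GSlinker and SF1 mutant changes were 0.59, 0.96 and 0.54 (adjusted p of 0.000632, 2.86e-06 and 0.00124). Among the 12 libraries alone it was called in WT (0.20, adjusted p = 0.00399) and d38 (0.13, adjusted p = 0.0425). pea, the helicase that releases the finished message, had 55.0, 55.7 and 54.0 CPM in WT, 53.5, 54.9 and 57.3 in d38, 52.5, 54.0 and 53.7 in RRM2, 60.9, 58.8 and 64.7 in Beta5, 66.7, 70.8 and 65.0 in GSlinker, 57.5, 57.0 and 58.9 in the SF1 mutant, against 58.4, 58.1 and 56.2 in GFP. It was called higher in GSlinker by 0.23 (adjusted p = 0.000472). Prp18, a partner of Slu7, had 12.6, 14.1 and 15.2 CPM in WT, 13.0, 12.4 and 12.3 in d38, 13.4, 12.4 and 13.0 in RRM2, 13.9, 11.3 and 12.5 in Beta5, 15.8, 10.5 and 11.1 in GSlinker, 10.5, 11.8 and 13.3 in the SF1 mutant, against 13.5, 10.5 and 12.8 in GFP, and its groups overlapped throughout.

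The lines of the other set of libraries departed further from GFP, as did genes in general. Beta5 against GFP called 17 members, 9 higher and 8 lower, 53.1% beside 57.3% of all genes (28% and 29.3%). GSlinker against GFP called 20, 13 higher and 7 lower, 62.5% beside 63.7% (31.1% and 32.5%). The SF1 mutant against GFP called 14, 5 higher and 9 lower, 43.8% beside 58.5% (28.4% and 30.1%). Against WT, Beta5 gave 19 calls, 11 higher and 8 lower (59.4%, beside 54% of all genes, 24.9% and 29.1%). GSlinker gave 19, 12 and 7 (59.4%, beside 58.1%, 27.4% and 30.8%), and the SF1 mutant 13, 5 and 8 (40.6%, beside 49.2%, 23.6% and 25.6%). In all 3 lines against GFP, 11 members were called: SmF, Sf3b2, Prp8, Prp31 and Slu7 higher, and snRNP-U1-C, SmB, SmG, Sf3a2, hoip and Prp19 lower. The share of all genes called in all 3 is not given here, and the 3 comparisons share the GFP libraries. The 11 are therefore a list, and their number is not read as a trait of the members.

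Within these 3 lines the libraries of 1 construct were uneven. Over the 11 members, the median size of the log2 ratio to the GFP mean was 0.22 in SF1 mutant replicate 1, 0.47 in replicate 2 and 0.59 in replicate 3, and replicate 1 was the closest of the 3 to GFP in 10 of 11. It is also the deepest library of the series, and the part of depth was not tested. Beta5 replicates had 0.63, 0.33 and 0.39, and GSlinker replicates 0.71, 0.73 and 0.61. Other groups also had 1 library closest to GFP in most of the 11. This was Beta5 replicate 2 in 9, GSlinker replicate 3 in 9, and replicate 1 of d38 and of RRM2 in 8 each. The 11 members were picked by their calls in these lines and are not independent of each other. The matching share of all genes is not given here, so these counts describe the 11 alone and do not rank the libraries. Without SF1 mutant replicate 1 the calls in the SF1 mutant were 16 against GFP and 18 against WT, and without replicate 3 they were 10 and 8. WT replicate 1 left out gave 8 for the SF1 mutant against WT. The members that fell in all 3 lines have mean transcript lengths from 457 nt (SmG) to 1757 nt (Prp19), and those that rose from 467 nt (SmF) to 7442 nt (Prp8). Over all 8750 genes the Spearman correlation of log2 fold change with length against GFP was 0.31 in Beta5, 0.29 in GSlinker and 0.30 for the SF1 mutant, and over the 32 members 0.26, 0.28 and 0.22. In WT, d38 and RRM2 against GFP it was −0.10, 0.11 and 0.04 over all genes. Against WT it was 0.28 in d38 and 0.23 in RRM2, within the first set, and 0.40 to 0.46 in the other set. Genes share libraries and GFP, so these are descriptions, and the part of length in the calls was not tested.

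**Figure D3:**
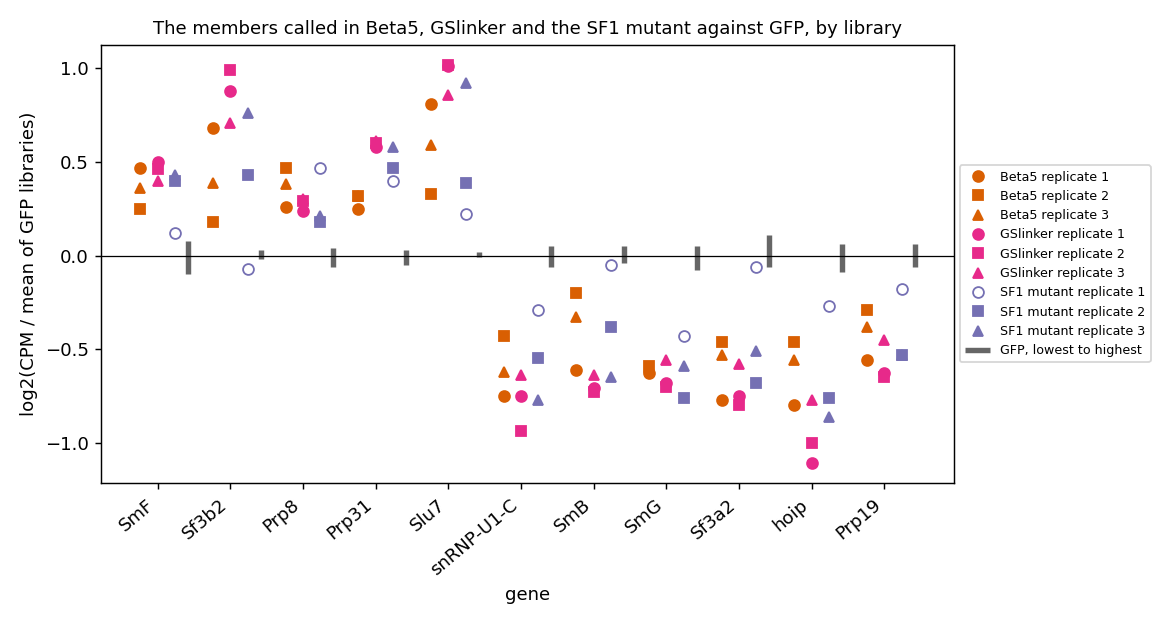
Log2 ratio of CPM to the mean of the GFP libraries (vertical axis) for the 11 members called in Beta5, GSlinker and the SF1 mutant; each symbol is 1 library, open circles are SF1 mutant replicate 1, and grey bars span the GFP libraries. The open circle is the nearest of the SF1 mutant symbols to 0 in 10 of the 11 genes, and Beta5 replicate 2 and GSlinker replicate 3 are each the closest of their line to GFP in 9.

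Some contrasts lie within a set, although the spread was estimated over all 21 libraries. Among WT, d38, RRM2 and GFP, an F test called 7 members, 21.9% beside 42.4% of all genes: snRNP-U1-70K, SmG, Prp3, Prp31, hoip, crn and Bx42. Fitted on the 12 libraries alone it called 13, 40.6% beside 57.9%. Among Beta5, GSlinker and the SF1 mutant it called 14, 43.8% beside 35.9% of all genes, including Prp31 (adjusted p = 0.000697), U4-U6-60K (0.00123), Sf3a1 (0.00232), pea (0.00490) and Sf3b5 (0.00506), each with its highest group mean of the 3 in GSlinker. Not all of the 14 lay that way: SmB (adjusted p = 0.0235) and SmD1 (0.0225) had their lowest group mean of the 3 in GSlinker. That count of 14 was 7 without GSlinker replicate 1 and 6 without GSlinker replicate 2.

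Isoform usage was tested in the 9 members with 2 transcripts in the tables, as the share of each isoform in the TPM of its gene, with limma on a logit scale and 1 p per gene adjusted over 4455 genes. WT against GFP called 3 of 9, 33.3% beside 17.5% of all genes tested (snRNP-U1-70K, SmG and Sf3b3). d38 called 2, 22.2% beside 13.6% (SmG and hoip), and RRM2 called 3, 33.3% beside 14.6% (snRNP-U1-70K, SmG and hoip). Beta5 called 4 (44.4%, beside 34.6%), GSlinker 4 (44.4%, beside 44%) and the SF1 mutant 3 (33.3%, beside 38.5%). Against WT, d38 called 2 (22.2%, beside 8.28%), Beta5 3 (33.3%, beside 29.1%), GSlinker 4 (44.4%, beside 35.9%) and the SF1 mutant 3 (33.3%, beside 25.3%). RRM2 against WT called 0 (beside 2.07%) with limma and 0 with edgeR's isoform F test, and 1 at an unadjusted p under 0.05. In an earlier check on simulated counts that F test made many false calls and limma on shares few, so limma was the main test. The numbers of that check are not given here. In 7 of the 9 pairs the isoforms differ only in where they start or end, and the share rests on reads in that stretch.

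Sf3b3, the scaffold subunit of SF3b, was the member whose isoforms differ by an internal exon (FBgn0035162, chromosome 3L, 826720 to 833385, minus strand, BDGP6). Sf3b3-RC holds an exon of 107 nt (830622 to 830728) that Sf3b3-RA lacks. Its annotated coding sequence ends 5 nt into that exon, at 1407 nt, against 3681 nt in RA. The share of RC was 31.5, 29.9 and 27.2% in WT, 40.7, 41.6 and 40.5 in d38, 33.8, 33.4 and 33.3 in RRM2, 41.1, 41.5 and 39.7 in Beta5, 33.7, 28.5 and 30.6 in GSlinker, 37.5, 45.7 and 38.7 in the SF1 mutant, against 35.9, 35 and 35.9 in GFP. The WT, RRM2 and GSlinker libraries lay below GFP, and the d38, Beta5 and SF1 mutant libraries above it. The mean was 40.9% ± 0.586 in d38 and 29.5% ± 2.20 in WT (SD, n = 3 each). d38 exceeded WT by 11.4 percentage points (adjusted p = 0.00196), Beta5 by 11.3 (adjusted p = 0.000685) and the SF1 mutant by 11.1 (adjusted p = 0.00105), and these 3 calls held under all alternatives, with adjusted p of at most 0.0145. RRM2 and GSlinker were 4.0 and 1.4 points above WT (adjusted p of 0.396 and 0.597).

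Against GFP the change of Sf3b3-RC was smaller. WT was 6.1 points lower, with an adjusted p of 0.0428, and d38 was 5.3 points higher, with an adjusted p of 0.113 (0.0483 over the 12 libraries alone). Beta5, GSlinker and SF1 mutant comparisons with GFP gave limma adjusted p of 0.068, 0.0677 and 0.0739. edgeR's isoform F test called Beta5 and GSlinker (adjusted p of 0.042 and 0.0231), and over the alternatives the SF1 mutant reached 0.0316. The WT call was lost with a replicate block (adjusted p = 0.0574) and without WT replicate 2 or 3 or any 1 GFP library, with adjusted p from 0.0778 to 0.171. The gene's total did not reach the threshold in WT (0.01, adjusted p = 0.917) or d38 (−0.16, adjusted p = 0.0679) against GFP. The annotation places 9 snoRNA genes and lncRNA:CR45184 (826720 to 830190) within Sf3b3, and 0 of their transcripts are in the tables. Whether their reads enter the Sf3b3 counts was not tested. The exon of RC lies outside the interval of the lncRNA.

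**Figure D4:**
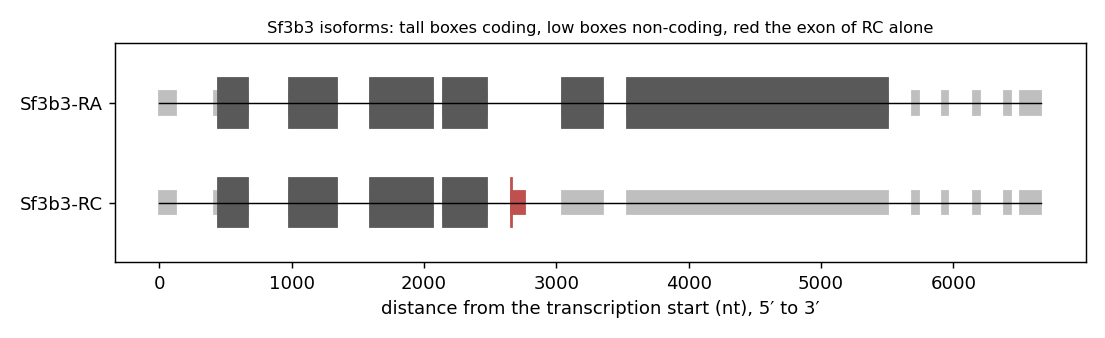
Exons of the Sf3b3 isoforms by distance from the transcription start (nt, horizontal axis); tall boxes are coding, low boxes non-coding, and the exon of Sf3b3-RC alone is red. The coding part of RC stops within the red exon, so the exons after it are non-coding in RC and coding through the seventh exon in RA.

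Among the 9 pairs, SmG showed the largest shift in share. SNRPG-RB ends 51 nt before SNRPG-RA, with the same number of exons and the same coding length. Its share was 9.84, 26.3 and 34.6% in WT, 49.0, 43.8 and 49.6 in d38, 36.9, 31.9 and 52.4 in RRM2, 80.2, 86.1 and 80.3 in Beta5, 92.9, 82.6 and 83.2 in GSlinker, 88.4, 70.2 and 93.9 in the SF1 mutant, against 0.00008, 10 and 0.499 in GFP. The order ran from GFP, near 0 in replicates 1 and 3, through WT to RRM2 and d38, and then to the other set, in which RB was the main isoform in all 9 libraries. The adjusted p against GFP was 0.00827 for WT, 0.000854 for d38 and 0.00137 for RRM2. WT replicate 1 lay below GFP replicate 2, and without GFP replicate 1 the WT call was lost (adjusted p = 0.0523). d38 and RRM2 exceeded WT by 23.8 and 16.8 points, with adjusted p of 0.271 and 0.583.

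For hoip, RB starts 38 nt upstream of RA and has the same coding length. The share of hoip-RB was 12.2, 12.3 and 9.55% in WT, 17.6, 19.6 and 21.3 in d38, 19.2, 17.5 and 16.7 in RRM2, 20.1, 19.5 and 15.6 in Beta5, 20.7, 15.5 and 16.5 in GSlinker, 30.4, 18.6 and 24.3 in the SF1 mutant, against 9.11, 9.30 and 12.4 in GFP. All libraries of the 5 mutants lay above all WT and GFP libraries. Against GFP, d38 was 9.2 points higher (adjusted p = 0.00528) and RRM2 7.5 points (adjusted p = 0.0133), while WT differed by 1.1 points (adjusted p = 0.722). The RRM2 call was lost without RRM2 replicate 1 or GFP replicate 1 (adjusted p of 0.0535 and 0.0625). Against WT, d38 was 8.1 points higher (adjusted p = 0.0191) and RRM2 6.4 points (adjusted p = 0.113). The d38 call against WT was lost without WT replicate 3 or d38 replicate 2 or 3 (adjusted p of 0.0986, 0.0648 and 0.0863).

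For snRNP-U1-70K, RC extends 1114 nt further at the 3′ end than RA. The share of RC was 7.37, 5.67 and 6.56% in WT, 8.96, 9.07 and 9.67 in d38, 6.66, 9.74 and 5.97 in RRM2, 4.61, 5.41 and 5.47 in Beta5, 4.41, 3.63 and 4.09 in GSlinker, 3.99, 5.68 and 4.98 in the SF1 mutant, against 11.4, 10.3 and 11.2 in GFP. All 18 LS2 libraries lay below the 3 GFP libraries. WT was 4.4 points lower than GFP (adjusted p = 0.00459, at most 0.0272 over the alternatives) and RRM2 3.5 points lower (adjusted p = 0.0273), and d38 was 1.7 points lower (adjusted p = 0.360). The RRM2 call was lost without RRM2 replicate 1 or 3 or GFP replicate 1 or 3, with adjusted p from 0.0707 to 0.136. Beta5, GSlinker and the SF1 mutant were 5.8, 6.9 and 6.1 points lower, with adjusted p of at most 0.000188.

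**Figure D5:**
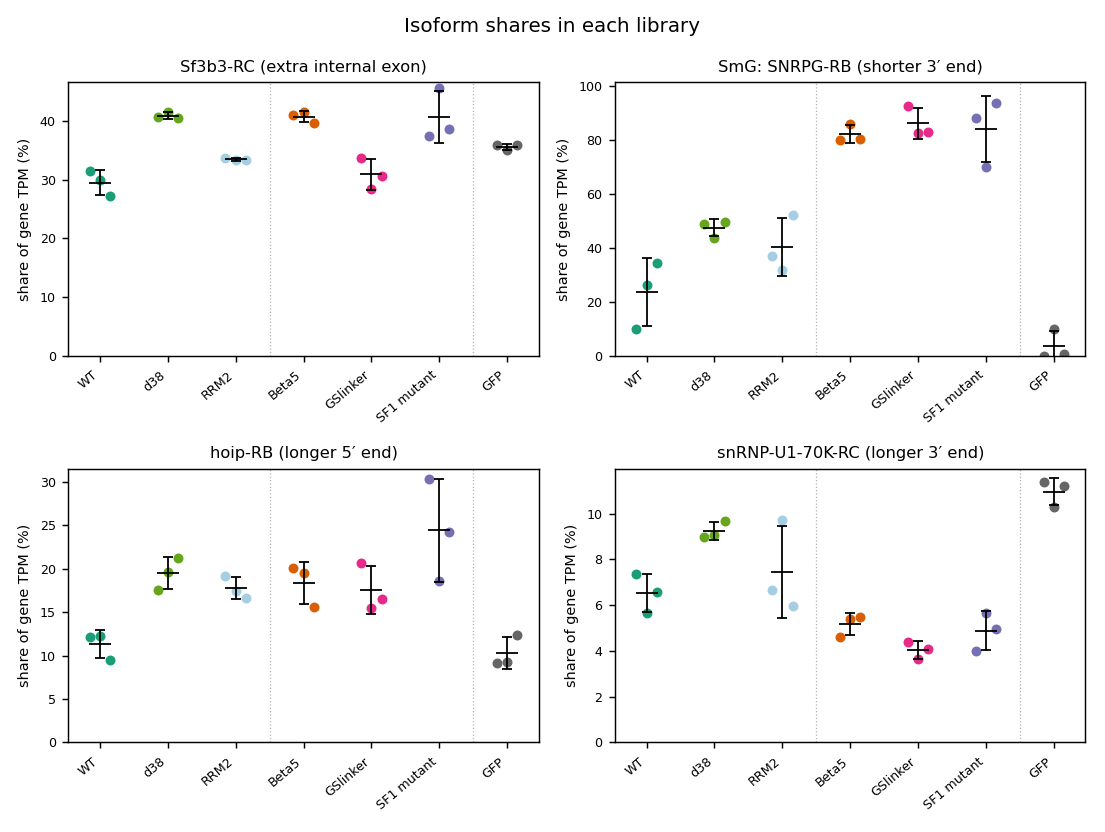
Share of 1 isoform in the TPM of its gene (%, vertical axis, from 0) in each of the 21 libraries (points), with the mean and SD of 3 libraries (bars); dotted lines part the Beta5, GSlinker and SF1 mutant set from the rest. Sf3b3-RC is lowest in WT and GSlinker, SNRPG-RB is near 0 in 2 GFP libraries, hoip-RB is higher in all mutants than in WT and GFP, and snRNP-U1-70K-RC is highest in GFP.

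The remaining 5 pairs were called by limma in none of WT, d38 and RRM2 against GFP, nor in d38 or RRM2 against WT. Sf3b1-RB, with 191 nt more at the 3′ end, had a share of 51.5% ± 2.04 in Beta5 against 34.7% ± 6.05 in GFP (SD, n = 3 each; adjusted p = 0.0356), a call lost when any 1 library of Beta5 or GFP replicate 1 or 2 was left out (adjusted p from 0.0658 to 0.126). Sf3b2-RB, 281 nt longer at the 3′ end, had 12.4% ± 8.58 in GSlinker against 31.7% ± 13.9 in WT and 31.1% ± 4.23 in GFP, with adjusted p of 0.0108 against WT and 0.00832 against GFP. These were 0.0634 and 0.0505 without GSlinker replicate 1, and 0.0617 against WT without WT replicate 1. Prp40 overlaps Sf3b2 on the other strand over 188 nt, all within the stretch that RB alone holds. Reads of that overlap cannot be told apart. In GSlinker, Prp40 was higher than in WT by 0.25 (edgeR adjusted p = 0.0011) and differed from GFP by 0.12 (edgeR adjusted p = 0.09). The part of Prp40 in the share was not tested. Bx42, Cdc5 and Prp3 were called by limma in none of the 11 comparisons. edgeR's isoform F test, which made many false calls on simulated counts, called Bx42 in GSlinker against GFP (adjusted p = 0.0172, and 0.0557 with limma).

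Around the 32 members, 37 of 40 listed genes of the same pathway were matched and tested: snRNP assembly factors, the LSm ring of U6 and further U1, U2, tri-snRNP and Prp19-related proteins. WT against GFP called 5 higher and 3 lower (21.6%, beside 34.2% of all genes), d38 3 and 4 (18.9%, beside 30.3%), and RRM2 6 and 5 (29.7%, beside 24.9%). hfp, a poly-U-binding relative of the U2AF family, rose in WT by 0.48 (adjusted p = 4.77e-08), in d38 by 0.28 (7.41e-05) and in RRM2 by 0.24 (0.000548), and was lower in d38 than in WT by 0.20 (0.00428) and in RRM2 than in WT by 0.24 (0.00147). Prp6, which bridges U5 and U4/U6 beside Prp31, rose in WT by 0.40 (adjusted p = 1.88e-06) and RRM2 by 0.18 (0.00896), and differed by −0.01 in d38 (0.865). Against WT it was lower in d38 (−0.41, adjusted p = 5.94e-06) and in RRM2 (−0.21, adjusted p = 0.00715). Prp4k, a kinase of the tri-snRNP, rose by 0.28 in WT, 0.37 in d38 and 0.28 in RRM2 (adjusted p of 0.00728, 0.00103 and 0.0105).

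Of the rest called in WT, LSm-4 of the LSm ring rose by 0.35 (adjusted p = 0.00601), with 0.32 in d38 and 0.38 in RRM2. Dhx15, the helicase that takes apart spent spliceosomes, rose by 0.21 (adjusted p = 0.0148). Prp5, the helicase that acts on the U2 snRNP at the branch site, fell by 0.51 in WT (adjusted p = 0.000189) and by 0.46 in RRM2 (adjusted p = 0.000896), and d38 lay above WT by 0.34 (adjusted p = 0.0152). Prp16, the helicase between the catalytic steps, fell by 0.27, 0.21 and 0.26 in WT, d38 and RRM2 (adjusted p of 0.000846, 0.00756 and 0.00179). rig, the fly Gemin5 of the snRNP assembly complex, fell by 0.20 in WT (adjusted p = 0.0105).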

How the data were processed

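Polyadenylated RNA of 21 libraries in 7 groups of 3 was measured. The deposited tables hold estimated counts and TPM per transcript, 1 table per library, per the file headers. Per the submitters' processing notes, kallisto and STAR were used with dm6 and BDGP6; versions, options and strandedness are not given in the sources used here. The authors' TPM values are scaled by effective length.

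Transcript IDs were matched to genes with the Ensembl release 115 annotation of BDGP6 (30242 of 30594 matched). Estimated counts were summed per gene and rounded to whole numbers. edgeR 4.0.16 (R 4.3.3) was used with TMM scaling (factors 0.958 to 1.05), a minimum count of 10 and the quasi-likelihood test over all 21 libraries with 14 residual degrees of freedom. An SE is the size of the log2 fold change divided by the square root of F. Isoform shares of TPM were tested with limma 3.58.1 on the log2 odds with 0.01 added to each side, over 14496 isoforms of 4455 genes, with Simes p-values per gene. Benjamini-Hochberg adjustment ran over all genes tested, with a threshold of 0.05. The tests were checked on simulated counts. These were drawn independently for each gene or transcript, which leaves out reads shared between isoforms.

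The 32 members and all lists were chosen with earlier results of these data known. Values in every library are given for the 3 members of each class with the lowest p over the 6 LS2 groups and for members called in isoform usage in WT, d38 or RRM2 against GFP. Context genes are named if called in WT against GFP, at most 3 per list. Alternatives were DESeq2 1.42.0 and its size factors, no filter, an effective length offset, the 12 libraries of 1 set, limma on log2(TPM + 1) or log2(TPM + 0.1), other isoform settings, a replicate block and leaving out each library. Libraries with the same replicate number did not deviate together (correlations from −0.211 to 0.133), so the numbers were not used as pairs. Depth was 17667236 to 38553848 estimated counts per library, and each member had at least 224 in every library.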

Additional observations from a re-analysis of the deposited data

Results flagged for a closer look

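Prp31 rose less in the mutants than in WT by a test of the difference itself: the log2 fold change against WT was −0.38 in d38 and −0.32 in RRM2, with edgeR adjusted p of 3.67e-05 and 0.000324, and in each case all 3 mutant libraries were below all 3 WT libraries.

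The share of Sf3b3-RC was 11.4 percentage points higher in d38 than in WT (limma adjusted p = 0.00196), with d38 above GFP and WT below it in all 3 libraries of each. The share of hoip-RB was 8.1 points higher in d38 than in WT (limma adjusted p = 0.0191), again with all 3 d38 libraries above all 3 WT libraries. Each of these was marked because the fitted test of the mutant against WT passed the threshold. What lies behind the differences was not tested.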

How the results depend on the processing

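Counts of members called depended on the choice of libraries and of scale. Fitting only the 12 libraries of WT, d38, RRM2 and GFP gave 10, 9 and 9 for WT, d38 and RRM2 against GFP, 5 and 3 for d38 and RRM2 against WT, and 13 among the 4 groups. Without a filter on low counts WT against GFP gave 2. Limma on log2(TPM + 1) and on log2(TPM + 0.1) both gave 23 for the SF1 mutant against GFP, 8 for d38 and 2 for RRM2 against WT, and 12 among the first 4 groups; DESeq2 gave 2 for d38 and 2 for RRM2 against WT. TPM scaling moved the median of all genes by up to 0.18 (SF1 mutant against WT) on the log2 scale. SmG against WT reversed on both TPM scales, to 0.04 (Beta5), 0.05 (GSlinker) and 0.08 (SF1 mutant); the cause was not tested. All 13 expression counts stayed within 1.5 times under DESeq2 size factors and the effective length offset.

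Leaving out 1 library gave expression counts against GFP of 2 to 5 (WT), 2 to 4 (d38), 5 to 5 (RRM2), 13 to 18 (Beta5), 19 to 20 (GSlinker) and 10 to 16 (SF1 mutant). Against WT they were 1 to 2 (d38), 1 to 1 (RRM2), 13 to 19 (Beta5), 19 to 20 (GSlinker) and 8 to 18 (SF1 mutant), and 5 to 8 and 6 to 15 within the first and the other set. Isoform counts against GFP were 1 to 3 (WT), 2 to 3 (d38), 1 to 3 (RRM2), 3 to 4 (Beta5), 4 to 5 (GSlinker) and 3 to 4 (SF1 mutant), and against WT 1 to 2 (d38), 0 to 0 (RRM2), 2 to 3 (Beta5), 2 to 4 (GSlinker) and 3 to 3 (SF1 mutant).

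With a replicate block the number of calls in WT against GFP was 5 for expression and 2 for isoforms, and all 24 counts stayed within 1.5 times. Beside Sf3b3 isoforms in WT (adjusted p = 0.0574), 3 expression calls were lost. The labels do not state a pairing by replicate number, and libraries with the same number did not deviate together.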
